A study of Homo sapiens with 9 samples.

Results

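The widest p300 peaks were examined in irradiated PC3, a human prostate carcinoma line grown from a bone metastasis. They were the peaks of 700 bp or more on chromosomes 1 to 22, chosen by their width in the deposited peak list of each p300 library. There were 553 such peaks among 19506 autosomal peaks (2.84%) and 19861 peaks in all. All other autosomal peaks, 18953, are called narrower. Cells of 3 libraries had received 30 µM MnTE-2-PyP for 24 h and are called treated 1, 2 and 3. Cells of 2 libraries had received no drug and are called untreated 1 and 2. Both groups received 20 Gy of radiation, and fixation with 1% formaldehyde followed after 1 h, so no list describes cells without radiation, and all lists describe a single cell line. The libraries are described as biological replicates, with 1 peak list each, and values of the 4 input libraries were not used here.

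p300 is a histone acetyltransferase that is brought to promoters and enhancers by DNA-binding factors and acetylates histones there. At dense groups of enhancers it can be spread over kilobases, and such sites appear in chromatin immunoprecipitation as wide or closely spaced peaks. MnTE-2-PyP is a manganese porphyrin that removes superoxide as superoxide dismutase does, and it is studied as a protector of normal tissue during radiotherapy. Width is also set by the peak caller, which joins neighbouring enriched positions and does not report peaks below a minimum width.

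That minimum differed between the lists. The narrowest peak was 193, 291 and 200 bp in treated lists 1, 2 and 3, and 199 and 332 bp in untreated lists 1 and 2. The limit of 700 bp was therefore 3.63, 2.41 and 3.50 times the narrowest peak in the treated lists and 3.52 and 2.11 times in the untreated lists. Read depth is unknown, since the lists hold no read counts, and the lists held 528 to 10059 peaks. The peak names carry a run identifier, which is not described in the labels. It was the same for treated 1 and untreated 1 and for treated 3 and untreated 2, while treated 2 had its own. No annotation of repeats or genes on hg19, the build of the lists, was used, so the sites are named by hg19 coordinates counted from 1.

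Wide peaks were a small part of every list. They numbered 91, 283 and 23 in treated lists 1, 2 and 3, and 41 and 115 in untreated lists 1 and 2. As a share of autosomal peaks this was 1.88% (95% Wilson interval 1.54 to 2.30%), 2.86% (2.55 to 3.21%) and 4.53% (3.04 to 6.70%) with the drug, and 1.82% (1.34 to 2.46%) and 5.73% (4.79 to 6.83%) without it. These intervals cover counting error only. Untreated 2, with the widest minimum, had the largest share. Treated 3, with a minimum of 200 bp, had the second largest. Of its 23 wide peaks, 21 lay in or near clusters of regions present in all 5 lists, described below. With the limit at each list's narrowest peak plus 450 bp, the shares were 2.17%, 2.30% and 5.31% treated and 2.17% and 3.83% untreated. Treated 3 then had the largest share and untreated 2 the second largest. Whether the minimum width set the shares at 700 bp was not tested.

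Many wide peaks lay close to the limit. Those under 800 bp were 20 of 91, 113 of 283 and 8 of 23 in the treated lists, and 9 of 41 and 45 of 115 in the untreated lists. Their median width was 967, 850 and 871 bp with the drug and 928 and 844 bp without it. Widths of 1000 bp or more were reached by 42, 82 and 7 treated peaks and by 16 and 33 untreated peaks. Just inside the limit were a peak of treated 1 on chromosome 20 and peaks of treated 2 on chromosomes 1 and 10, all of 700 bp. Just outside were peaks of 699 bp in treated 2 and untreated 2 and one of 698 bp in treated 2. The score percentiles were 51.7 to 93.5 for those inside and 11.9 to 71.4 for those outside.

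**Figure D1:**
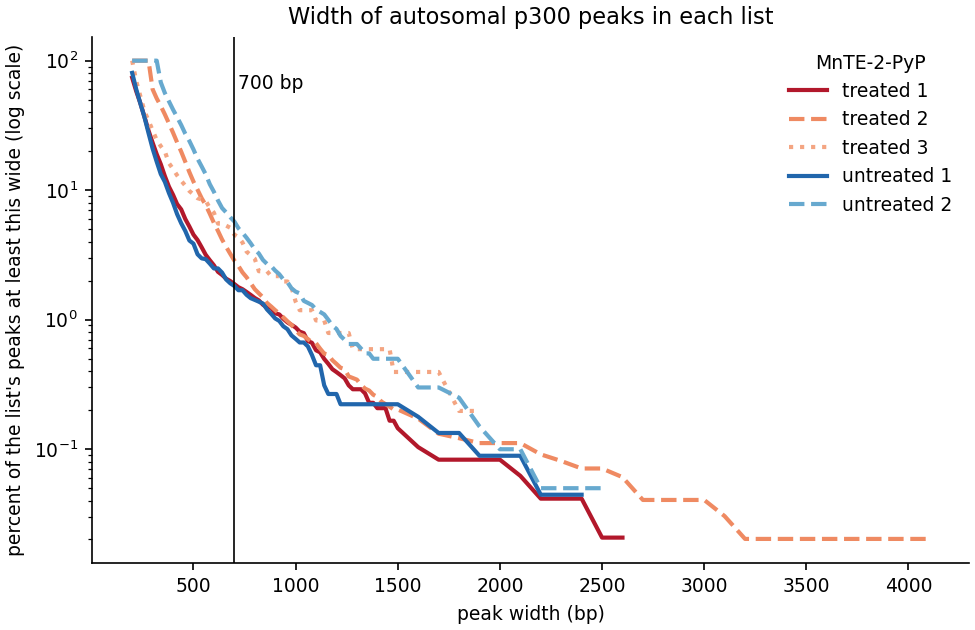
Percentage of each list's autosomal peaks (vertical axis, log scale) that are at least as wide as the value on the horizontal axis in bp, 1 line per list. The vertical line marks 700 bp, where the treated lists lie at 1.88%, 2.86% and 4.53% and the untreated lists at 1.82% and 5.73%. The lists separate at the narrow end, where their minimum widths differ.

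Together the wide peaks covered 95.9, 282 and 22.9 kb in the treated lists and 42.8 and 111 kb in the untreated lists. This was 7.20%, 7.54% and 14.5% of the length of all autosomal peaks with MnTE-2-PyP, and 6.95% and 12.7% without it. The groups overlapped in every one of these measures.

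Neither the number nor the share of wide peaks separated the treated from the untreated lists. Treated lists held 132 ± 135 wide peaks (SD, n = 3) and untreated lists 78.0 ± 52.3 (SD, n = 2), a log2 ratio of 0.76 (exact two-sided permutation p = 0.9 over the 10 divisions of the 5 lists, which allow no p below 0.1). Wide peaks made up 3.09 ± 1.34% of the treated lists and 3.77 ± 2.76% of the untreated lists. The difference in share of -0.683 percentage points was smaller than the spread within either group (exact two-sided permutation p = 0.7). After Benjamini-Hochberg adjustment over 4 tests between the groups, every p was 0.9 in these exact permutation tests.

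Within run identifiers the difference changed sign. Treated 1 and untreated 1 had 1.88% and 1.82%, and treated 3 and untreated 2 had 4.53% and 5.73%. The within-run differences, treated minus untreated, were 0.0635 and -1.20 percentage points, and the log2 ratios of the numbers were 1.15 and -2.32. With a single list per group in each pair, neither pair was tested alone. An exact sign-flip permutation test over the 2 pairs was run, but it cannot give a p below 0.5 and decides nothing.

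A small set of sites was wide in every library. When overlapping peaks of all widths were merged, 367 of 16452 autosomal regions held a wide peak. Of these, 287 were wide in 1 list, 31 in 2 lists, 21 in 3, 17 in 4 and 11 in all 5. The 80 regions wide in 2 or more lists had a median ratio of 1.37 between the list with the widest and the list with the narrowest wide peak. The ratio was under 1.5 in 47 of them and reached 5.57. Of the 11 regions wide in all 5 lists, 9 lay on chromosome 8, with 8 in the stretch chr8:86726466-86840885 and 1 in the stretch chr8:86555062-86576293, and 1 each on chromosomes 1 and 7.

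The chromosome 7 site, chr7:56438114-56440776, gave the widest peak of 3 lists. Its widest peak measured 2663, 2544 and 1144 bp in treated lists 1, 2 and 3, and 2497 and 2567 bp in untreated lists 1 and 2. Treated 3 thus stood apart, with 3 separate peaks where the other lists had 1. The authors' score, whose scale is not named and which is used here only for rank within a list, was 24.2, 24.98 and 8.76 for these treated peaks and 14.7 and 8.03 for the untreated ones.

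On chromosome 8, the site chr8:86726466-86728148 had the highest mean score percentile of the sites wide in all lists. Its widest peak measured 1526, 1683 and 1463 bp in the treated lists and 1095 and 1360 bp in the untreated lists. The treated widths all lay above the untreated ones, but untreated 1 had 2 separate peaks there and every other list had 1. This order was not tested because the site was named for its rank. At chr8:86838680-86840885 the order was different, with widest peaks of 2199, 2180 and 1797 bp treated and 2194 and 1756 bp untreated. Treated 3 had 2 peaks there and every other list 1. At chr8:86787158-86789596 the widest peaks were 2403, 2352 and 1261 bp with the drug and 1810 and 2136 bp without it, so the groups overlapped. Treated 3 had 3 peaks at that site and every other list 1.

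The chromosome 1 site, chr1:2584112-2587823, held the widest peak of treated 3. The widest peak there measured 1358, 3124 and 1966 bp in the treated lists and 1129 and 1808 bp in the untreated lists. The site was a single peak in treated 2 and was broken into 2 to 4 peaks in the other lists. The other named sites wide in all 5 lists were chr8:86814635-86817335, chr8:86757925-86759067, chr8:86802382-86805115, chr8:86746939-86750034 and chr8:86573218-86576293. The remaining one, outside the 10 named by rank, was chr8:86756293-86757737. The widest peak of any list was in treated 2 at chr5:34189475-34193611, with 4137 bp and a score percentile of 94.3. That site was split into 4 peaks in every other list. The widest of them measured 1090 bp in treated 1 and 416 bp in treated 3, against 776 and 796 bp in untreated 1 and 2.

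Wide peaks gathered in stretches. Linking wide peaks of any list that lay within 50 kb of one another gave 42 stretches with 2 or more wide regions, on 17 chromosomes, which held 185 of the 367 regions (50.4%). The other 182 regions stood alone. In 7 stretches all 5 lists had a wide peak, and 9 stretches had wide peaks of treated 2 alone. Within single lists, another wide peak lay within 50 kb for 78.0%, 48.1% and 78.3% of wide peaks in the treated lists and for 75.6% and 53.9% in the untreated lists. The treated mean of 68.1% exceeded the untreated mean of 64.8% by 3.35 points, less than the spread in either group (exact two-sided permutation p = 0.8). Within runs the differences were 2.41 points for treated 1 and untreated 1 and 24.3 points for treated 3 and untreated 2.

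The stretch with the most wide peaks was chr8:86726466-86840885, 114 kb long with 12 wide regions. It held 14, 12 and 10 wide peaks of the treated lists and 11 and 11 of the untreated lists. These numbers were close although the lists themselves differed widely in length, so the stretch supplied 43.5% of the wide peaks of treated 3, the shortest list, and 4.24% of those of treated 2, the longest. In the other lists it supplied 15.4% (treated 1), 26.8% (untreated 1) and 9.57% (untreated 2). Its wide peaks had median score percentiles of 94.7, 97.6 and 69.3 in the treated lists and 80.5 and 93.5 in the untreated lists.

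The stretch with the most wide regions, 21, was chr1:2584112-2631020, 46.9 kb long. Here the lists differed, with 11, 14 and 2 wide peaks in the treated and 2 and 8 in the untreated lists. Neighbouring wide regions lay at a median of 1.88 kb from midpoint to midpoint. The stretch held 39, 29 and 15 peaks of any width in the treated lists and 25 and 11 in the untreated lists, so that untreated 1 had mostly narrower peaks where untreated 2 had mostly wide ones.

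Near the end of the long arm of chromosome 4, chr4:190942652-191013648 held 9 wide regions, with 1, 6 and 1 wide peaks in the treated and 2 and 4 in the untreated lists. Most of its peaks were narrower: it held 33, 25 and 21 peaks of the treated lists and 30 and 18 of the untreated lists in all. A related stretch near the end of chromosome 10, chr10:135477889-135495206, was singled out after its values were seen. Both chromosome ends are known to carry tandem copies of the D4Z4 repeat. On chromosome 10 the 6 wide regions followed each other at 2.97, 3.26, 3.35, 3.37 and 3.08 kb. On chromosome 4, 6 of the 8 intervals were between 2.85 and 3.68 kb. The chromosome 10 stretch held 4, 7 and 2 wide peaks of the treated lists and 5 and 5 of the untreated lists.

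**Figure D2:**
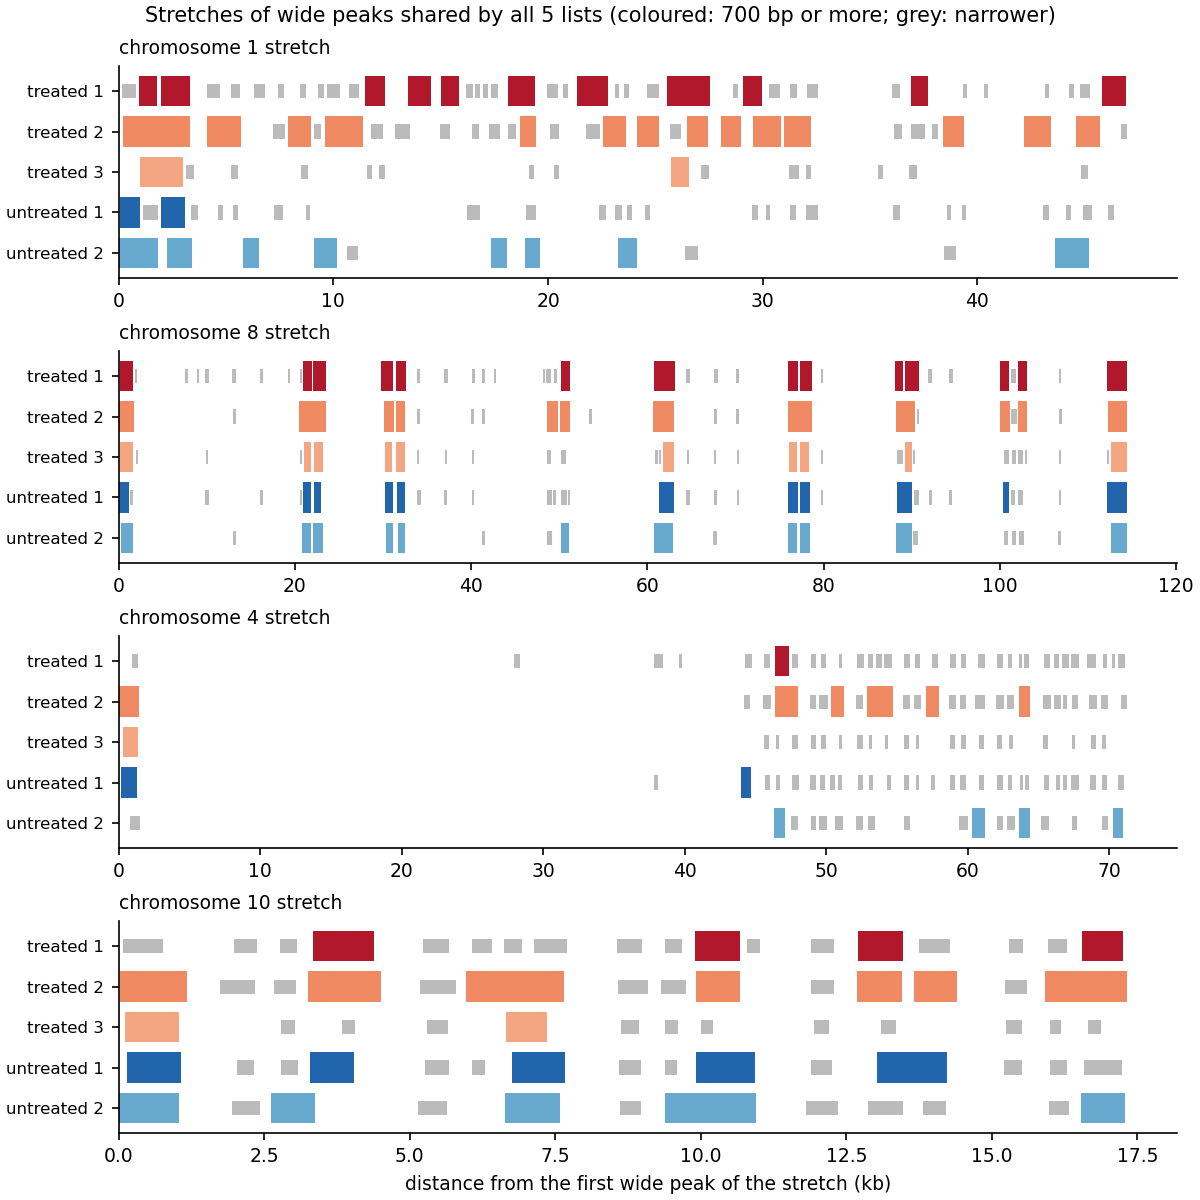
Peaks of the 5 lists in the 4 largest stretches in which every list has a wide peak, drawn to scale by distance in kb from the first wide peak of the stretch. Coloured bars are peaks of 700 bp or more and grey bars are narrower peaks, with treated lists above untreated lists. On chromosome 8 the wide peaks of the 5 lists mostly fall at the same positions, and near the end of chromosome 10 wide regions lie 2.97 to 3.37 kb apart.

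Other stretches were found in fewer lists. The one on chr10:80847582-81169727 spread 17 wide regions over 322 kb and held 6, 11 and 0 wide peaks of the treated lists and 0 and 1 of the untreated lists. Peaks of any width numbered 98, 62 and 5 in the treated lists and 49 and 23 in the untreated lists, so untreated 1 had peaks there but none of 700 bp. The stretch chr19:36760620-36798671, with 8 wide regions, had 3, 6 and 0 wide peaks in the treated lists and 0 and 4 in the untreated lists. The stretch chr2:133011745-133034900, with 7 wide regions, had 3, 6 and 0 in the treated lists and 3 and 5 in the untreated lists. Many wide peaks lay in or within 50 kb of 16 clusters of regions present in all 5 lists. They were 60.4%, 26.9% and 91.3% of wide peaks in the treated lists and 78.0% and 49.6% in the untreated lists. Narrower peaks lay there in 4.72%, 1.23% and 28.7% of cases treated and 8.18% and 4.23% untreated. Without the peaks there, 36, 207 and 2 treated and 9 and 58 untreated wide peaks remained. These made up 0.790%, 2.13% and 0.575% of the remaining treated peaks and 0.441% and 3.10% of the remaining untreated ones. The clusters were built from these same peaks, wide ones included, and each of their regions needs a peak of every list. A wide peak joins a region more easily, and treated 3, the shortest list, must supply a peak to each region. The shares in and near the clusters are therefore descriptions and were not tested.

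Wide peaks were found again in other libraries more often than narrower peaks in every list. A peak of another list was overlapped by 1 bp or more by 85 of 91, 162 of 283 and 23 of 23 wide peaks in the treated lists, and by 41 of 41 and 91 of 115 in the untreated lists. These were 93.4%, 57.2% and 100% with the drug and 100% and 79.1% without it. For narrower peaks of the same lists the shares were 26.0%, 12.6% and 83.7% with the drug and 41.6% and 30.0% without it. The share of wide peaks exceeded that of narrower ones by 47.2 percentage points on average and in 5 of 5 lists (exact two-sided sign-flip permutation p = 0.0625, the smallest that 5 lists allow, and 0.0833 after Benjamini-Hochberg adjustment over 4 tests). The 4 tests include the comparison of the widths of overlapped peaks, which is given below as a description only. Without it the adjusted value would be higher. The 5 differences share partner lists and are not fully independent.

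A wide peak has more bases that can be overlapped. With every peak replaced by a window of 300 bp around its centre, the shares were 86.8%, 48.1% and 91.3% for wide peaks of the treated lists and 97.6% and 71.3% for those of the untreated lists. Narrower peaks then gave 25.1%, 12.3% and 81.6% treated and 40.8% and 28.6% untreated, a mean difference of 41.3 points in the same direction in all lists. Wide peaks also scored higher, as described below. Among peaks above the 80th percentile of their list by score, an alternative chosen after seeing the data, the mean difference was 29.8 points. Wide peaks were then shared at 98.5%, 78.6% and 100% in the treated lists and at 100% and 97.7% in the untreated lists. Narrower peaks gave 61.1%, 33.1% and 94.8% treated and 78.8% and 58.2% untreated. The gap was thus smallest in treated 3, which had only 5 wide peaks above that percentile.

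The sharing of wide peaks differed between the groups by less than its spread. The mean share of shared wide peaks was 83.6 ± 23.02% in treated lists (SD, n = 3) and 89.6 ± 14.8% in untreated lists (SD, n = 2), a difference of -6.02 points (exact two-sided permutation p = 0.9). Within runs it was -6.59 points for treated 1 and untreated 1 and 20.9 points for treated 3 and untreated 2. All 41 wide peaks of untreated 1 overlapped a peak of treated 1, and 38 of them overlapped a peak of untreated 2. All 23 wide peaks of treated 3 overlapped a wide peak of treated 2. The wide peaks of treated 2 were shared least, with 121 of 283 in no other list, against 6 of 91 in treated 1 and 24 of 115 in untreated 2. Treated 2 is also the longest list. Among the 508 highest scores of each list, wide peaks were shared at 96.1%, 86.5% and 91.3% in the treated lists and at 93.1% and 78.0% in the untreated lists, so that untreated 2 was lowest. In treated 3 these 508 are all its autosomal peaks, so none was left out by score there. The lists searched for an overlap were cut to 508 peaks as well.

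The widths of overlapping peaks in different lists are given as a description, and no p is read from them. Width chose the members in every list, and an overlap of 2 wide peaks counts from both sides. Where a wide peak overlapped a peak of another list, that peak was also 700 bp or more in 50.2%, 31.2% and 76.5% of cases for the treated lists and in 74.2% and 42.9% for the untreated lists. Peaks overlapped by narrower peaks were wide in 10.2%, 3.02% and 19.3% of cases for the treated lists and in 12.6% and 8.09% for the untreated lists. The difference averaged 44.4 points and was above 0 in 5 of 5 lists. The median width of the overlapped peak was 762 ± 258 bp for wide peaks and 348 ± 49.0 bp for narrower ones (SD over 5 lists). A wide peak can overlap several peaks of another list, and each was counted.

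Wide peaks also had neighbours more often in every list. Another peak of any width in the same list lay within 50 kb of 98.9%, 88.0% and 95.7% of wide peaks in the treated lists and of 100% and 80.0% in the untreated lists. For narrower peaks this held for 59.1%, 58.9% and 43.1% treated and 42.1% and 35.5% untreated. The mean difference was 44.8 points, again in 5 of 5 lists (exact two-sided sign-flip permutation p = 0.0625, adjusted 0.0833 over the same 4 tests).

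**Figure D3:**
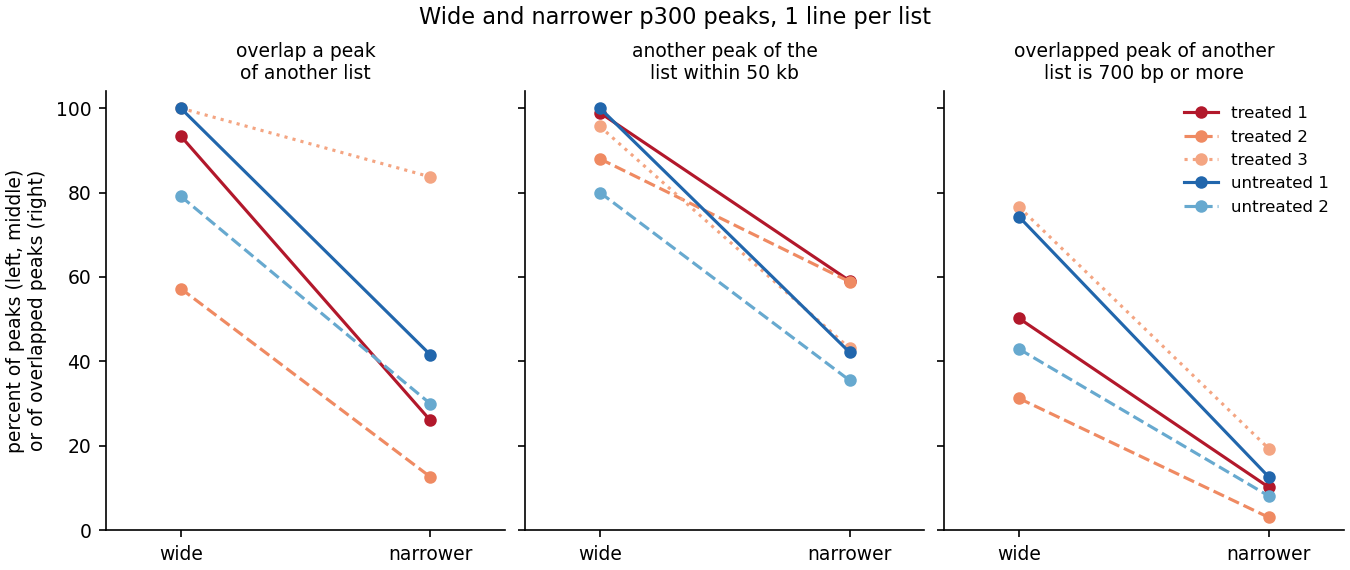
Percentage of wide and of narrower peaks that overlap a peak of another list (left) or have another peak of their list within 50 kb (middle), and percentage of the overlapped peaks of other lists that are 700 bp or more (right), 1 line per list. Every line is higher for wide than for narrower peaks, with mean differences of 47.2, 44.8 and 44.4 percentage points.

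The peaks of other lists that wide peaks overlapped showed no one direction in score rank against those that narrower peaks overlapped. The median percentile of the overlapped peak was 75.7, 66.0 and 88.9 for wide and 76.9, 73.6 and 89.4 for narrower peaks of the treated lists. In the untreated lists it was 93.6 and 80.1 for wide and 87.8 and 83.5 for narrower peaks. The mean difference was -1.38 percentile points, lower in 4 of 5 lists (exact two-sided sign-flip permutation p = 0.5625). It depended on the peaks included. Leaving out the 16 clusters of regions present in all 5 lists, it was -9.26 points (exact sign-flip permutation p = 0.1875), and over the 508 highest scores of each list it was -3.73 points (exact sign-flip permutation p = 0.0625).

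Within their own lists wide peaks mostly ranked high by score, though not everywhere. This is a description without a test, because width and score come from the same reads. The median percentile, counted over all peaks of the list, was 90.7, 80.3 and 57.6 in treated lists 1, 2 and 3, and 83.2 and 65.5 in untreated lists 1 and 2. Narrower peaks had medians of 47.0 to 49.3. Percentiles above 90 were held by 47 of 91, 105 of 283 and 1 of 23 treated wide peaks, and 12 of 41 and 27 of 115 untreated ones. The lower part of the list, at or below the median, held 7, 75 and 7 treated and 5 and 37 untreated wide peaks. The list's highest-scoring peak was narrower than 700 bp in all 5 lists. Across all peaks of a list, width and score had Spearman's rho of 0.074, 0.23 and 0.077 in the treated lists and 0.12 and 0.14 in the untreated lists. Among the wide peaks alone rho was 0.20, 0.40 and 0.37 in the treated lists and 0.13 and 0.44 in the untreated lists. These peaks share a library and are not independent.

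The wide peaks that no other list held ranked lower than the shared ones. Their median percentile was 57.2 in treated 1 (6 peaks), 54.3 in treated 2 (121 peaks) and 31.2 in untreated 2 (24 peaks), against 91.1, 92.0 and 76.2 for the shared wide peaks of the same lists. Treated 3 and untreated 1 had none. They were close to the limit, with median widths of 773, 782 and 760 bp in these 3 lists. The highest-scoring of them were at chr10:80966840-80967666 in treated 1, chr10:81168935-81169727 in treated 2 and chr21:44784447-44785334 in untreated 2, at percentiles of 83.0, 96.8 and 80.8. Wide peaks unique to treated 2 lay on 21 chromosomes, and 14.0% had another wide peak within 50 kb.

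**Figure D4:**
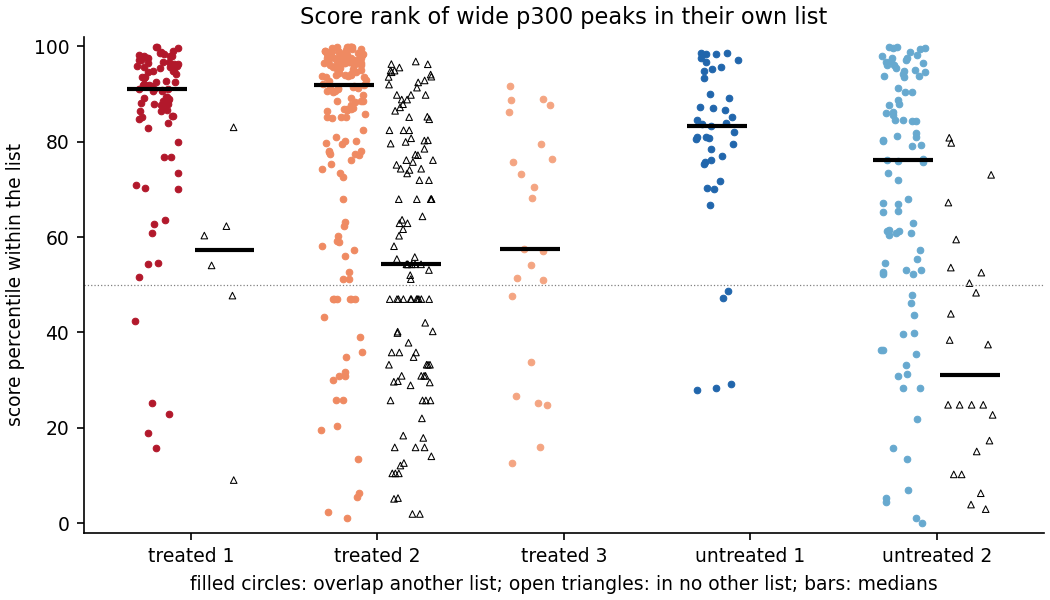
Percentile of the authors' score within its own list (vertical axis) for every wide peak, by list. Filled circles are wide peaks that overlap a peak of another list, open triangles are those in no other list, and bars are medians. Circles have medians of 57.6 to 92.0, and triangles, present in 3 lists, of 31.2 to 57.2.

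Few wide sites followed treatment. Of the 367 regions with a wide peak, 5 were held by all 3 treated and no untreated list, or 1.36%, where 0.237% of regions of any width had that pattern. A further step down, 33 regions (8.99%) were held by at least 2 treated lists without any untreated list, against 2.86% of all regions. None of the 367 was held by both untreated and no treated list, against 0.176% of all regions. The upper limit for that share, 3 of 367 or 0.817%, treats regions as independent, though many lie together in stretches. In all 5 lists there were 71 regions with a wide peak (19.3%), against 0.857% of all regions. In a single list there were 151 (41.1%), against 89.7%. Regions with a wide peak join more peaks by construction, and regions in more lists have more chances to hold one, so these shares are descriptions. The counts depended on single libraries: without treated 2 there were 165 regions with a wide peak. Regions in at least 2 treated lists and no untreated list, 33 with all lists, then numbered 2. This count was 4 without treated 1, 32 without treated 3, and 56 or 55 without untreated 1 or untreated 2. Without a treated list the pattern needs both remaining ones, and without an untreated list it needs absence from only 1 list. The shares of regions of any width were not determined with a list left out.

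In none of the 5 treated-only regions was the peak wide in more than 1 list. At chr2:87584347-87585498 the widest peak measured 263, 1152 and 274 bp in treated lists 1, 2 and 3, and at chr2:87623517-87624235 it measured 312, 719 and 364 bp. Treated 2 was again the only wide list at chr14:73708313-73709162, with 457, 850 and 307 bp. Treated 1 was the wide list at the 2 sites inside the chromosome 1 stretch, with 780, 647 and 339 bp at chr1:2620942-2621817 and 944, 547 and 279 bp at chr1:2595567-2596510. Of these 33 regions, 26 were wide in treated 2 alone and 7 in treated 1 alone. Of the 367 regions with a wide peak, 15 were wide in 2 or more treated lists and in no untreated list, and all had a narrower untreated peak. Sites wide in both untreated lists numbered 27, and all were also wide in at least 1 treated list. The rules differ, since any 2 of 3 treated lists were enough but both untreated lists were needed. Treated 2 alone had 283 of the 553 wide peaks, so no difference between the groups is read from these counts.

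Wide peaks were unevenly spread over the chromosomes. Chromosome 8 was the only autosome whose share of wide peaks exceeded its share of narrower peaks in all 5 lists. It held 20.9%, 9.89% and 47.8% of the wide peaks of the treated lists, where it held 10.8%, 6.72% and 9.90% of the narrower ones. In the untreated lists it held 31.7% and 16.5% of wide and 9.26% and 8.93% of narrower peaks. The span of both stretches, chr8:86555062-86840885, accounted for 18 of 19, 15 of 28 and 11 of 11 of these treated peaks and for 13 of 13 and 14 of 19 of the untreated ones. Outside that span chromosome 8 held 1.37%, 4.85% and 0% of the treated wide peaks and 0% and 4.95% of the untreated ones. Those shares were below the 4.38% to 10.1% of narrower peaks in the same lists.

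Chromosomes 3, 6, 11, 12, 15 and 22 had a smaller share of wide than of narrower peaks in all 5 lists. They held 15, 6, 10, 6, 14 and 1 wide peaks over all lists. The counts were small: all 6 had 0 wide peaks in treated 3, and chromosome 22 had 0 in 4 lists, where it held 0.590% to 1.35% of their narrower peaks. On chromosome 15 the share of wide regions, 3.54%, was close to the 3.58% of other regions. The outer 5 Mb of the chromosomes, counted from the first or last peak of any list, held 24.2%, 32.5% and 26.1% of wide peaks in the treated lists and 26.8% and 33.9% in the untreated lists. Narrower peaks lay there in 18.5%, 25.7% and 19.6% of cases in the treated and 20.5% and 24.7% in the untreated lists. These positions were added after seeing the data and were not tested.

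**Figure D5:**
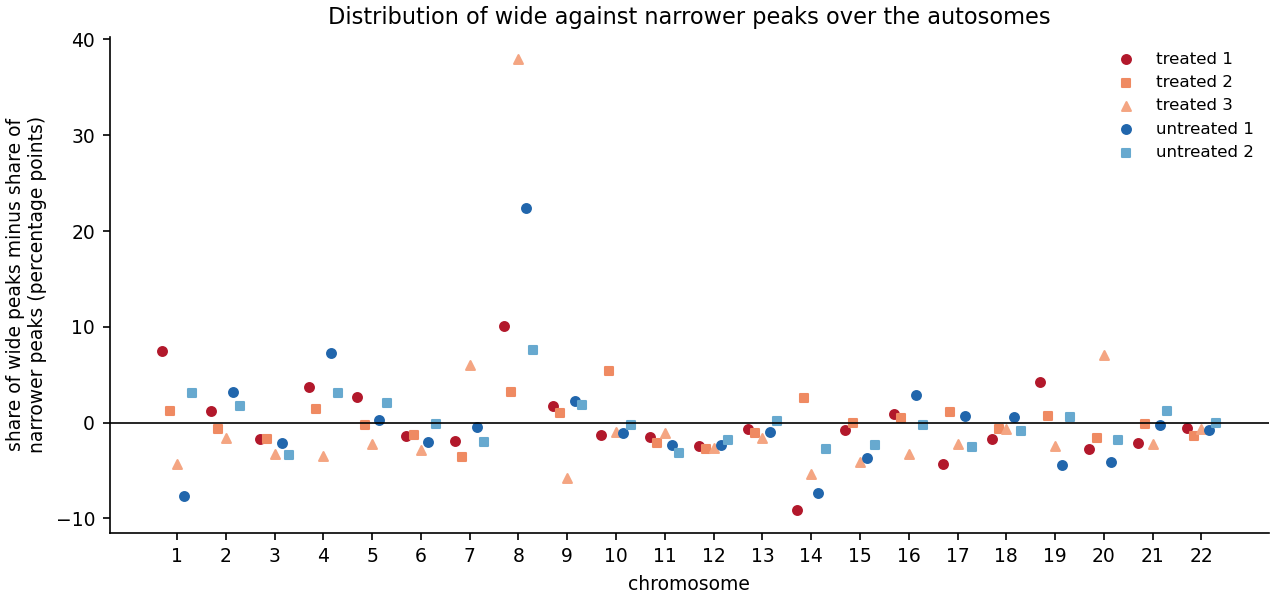
Share of a list's wide peaks on each autosome minus the share of its narrower peaks there, in percentage points, 1 point per list. Chromosome 8 is above 0 in all 5 lists, and chromosomes 3, 6, 11, 12, 15 and 22 are below 0 in all 5.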

How the data were processed

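p300 chromatin immunoprecipitation and sequencing gave 1 deposited peak list for each of 5 libraries. The authors placed reads on hg19 and called peaks with MACS2, per the submitters' processing notes. Chromatin was sheared to about 100 to 300 bp, per the labels' protocols. The aligner, the MACS2 version and thresholds, and the input set against each library are, for these lists, not given in the sources used here. The deposited score per peak has no named scale and was used only to rank and filter peaks within a list. The other deposited values are start and end positions in bp.

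Members were all autosomal peaks of 700 bp or more. Overlapping peaks (at least 1 bp) were joined as regions, and gaps for the 50 kb limit were measured edge to edge. Lists are the replicates and peaks are not. Groups were compared with exact permutation tests over the 5 lists, and wide with narrower peaks with exact sign-flip tests over the 5 lists. The p-values measure the spread between these lists. The members, the limits and the tests were chosen with earlier results of these data known. Named sites were up to 10 regions wide in the most lists, the widest peak of each list, up to 6 stretches with the most wide regions, up to 4 regions wide in 2 or more lists of one group and absent from the other (there were 0), the highest-scoring wide peak in no other list, and peaks next to the limit. Chromosomes were named where all 5 lists differed in one direction. Alternatives varied the width limit, the score minimum, the number of peaks, the overlap, the distance and the lists included. The scripts were checked on simulated lists, and 15 of 15 known values came back. Python 3.11.15, numpy 2.4.6, pandas 2.3.3 and matplotlib 3.10.9 were used.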

Additional observations from a re-analysis of the deposited data

Results flagged for a closer look

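For 3 of the 4 measures compared between the groups, the 2 pairs of lists that share a run identifier gave differences of opposite sign. For the share of wide peaks, the difference of treated minus untreated was 0.0635 percentage points for treated 1 and untreated 1, and -1.20 for treated 3 and untreated 2. The log2 ratio of their numbers was 1.15 in the first pair and -2.32 in the second. For the share of wide peaks found in another list the differences were -6.59 and 20.9 points. For the share of wide peaks with another wide peak within 50 kb both were above 0, at 2.41 and 24.3 points. None of these differences between the pairs was tested, since each pair holds 1 list per group.

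Treated 2 had 8 peaks of 700 bp or more on chromosomes X and Y, which the comparisons did not use, with 5 on X and 3 on Y. The other treated lists had 1 each, and untreated lists 1 and 2 had 1 and 3, all on Y. As a share of the peaks on X and Y this was 1.16% (1 of 86), 5.0% (8 of 160) and 5.0% (1 of 20) in treated lists 1, 2 and 3, and 1.72% (1 of 58) and 9.68% (3 of 31) in untreated lists 1 and 2. The count in treated 2 was thus above those of the untreated lists, and the share was not.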

How the results depend on the processing

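The 3 differences between wide and narrower peaks kept their sign under every alternative run. With 1 list left out they ranged over 42.5 to 55.2 points for sharing, 41.5 to 48.7 for neighbours and 41.1 to 46.2 for wide partners. Without recurrent clusters they were 41.4, 37.2 and 33.8 points, with 2 wide peaks left in treated 3. For neighbours each list's value does not depend on the other lists and was above 0 in all 5. Leaving out 1 list could therefore not change that sign. The difference for wide partners remains a description, because width chose the members in every list. The score percentile of the overlapped peak was 1.35 points higher for wide peaks at a limit of 1000 bp, 0.784 higher with centre windows, -9.26 without recurrent clusters, -3.73 with equal numbers of top-scoring peaks, and -3.23 to 1.80 with 1 list left out (1.80 without treated 3). The 4 differences between treated and untreated lists changed sign with the processing. The share difference was 0.259 points at each list's narrowest peak plus 450 bp, 1.94 with equal numbers of top-scoring peaks and -2.64 to 1.27 with 1 list left out (1.27 without untreated 2). The log2 ratio of numbers was -0.586 over run pairs and -0.453 to 1.69 with 1 list left out (-0.453 without treated 2). The difference in neighbouring wide peaks was -0.396 at the narrowest peak plus 450 bp, -0.542 for the widest 5% of each list and -7.50 to 14.2 with 1 list left out (below 0 without treated 1, treated 3 or untreated 2). The difference in sharing was 5.74 with equal numbers, 7.14 over run pairs and -17.7 to 7.0 with 1 list left out (above 0 without treated 2 or untreated 1).

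Regions with a wide peak numbered 726 at 600 bp, 105 at 1000 bp and 110 with equal numbers of peaks, and 165 to 367 with 1 list left out (165 without treated 2). Those in 1 list numbered 396, 16 and 27 under the same 3 settings and 41 to 176 with 1 list left out. Those in at least 2 treated lists without an untreated list numbered 60, 6 and 18, and 2 to 56. Those in all lists were 25 with equal numbers, 17 without recurrent clusters and 61 to 97 with 1 list left out. Those in all treated and no untreated list were 9 at 600 bp, 1 at 1000 bp, 3 with a common score minimum, 3 without recurrent clusters and 2 to 32 with 1 list left out (32 without treated 3, 16 without untreated 1). Those in both untreated and no treated list were 4 at 600 bp, 1 with equal numbers and 0 to 24 (24 without untreated 1). With fewer lists the same patterns need fewer lists. Causes of the other changes were not tested.

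With the replicate number as a block (replicate block), the differences were -1.40 points for share, a log2 ratio of 1.22 for number, -1.72 points for neighbouring wide peaks and -14.2 points for sharing. Only the lists numbered 1 also share a run identifier, so the replicate numbers are no pairing. Unknown read depth and minimum widths that differ between lists limit every count.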
